A study of Mus musculus with 18 samples.

Results

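The comparison described here sets the testes of mice that received the gut microbiota of AOS-treated donors while on a high fat diet with STZ against the testes of control mice, and asks what still differed from control after the transfer. The members were chosen by the labels: the 3 libraries of the group HFD_STZ_AOS_FMT and the 3 libraries of the group control, 6 of the 18 libraries of the series. All were testes of ICR mice, an outbred stock, aged 10 weeks. In the group names HFD is the high fat diet, STZ is streptozotocin, which kills insulin-producing cells, and FMT is fecal microbiota transfer. AOS is not spelled out in the labels, which give 10 mg/kg of it. The groups HFD_STZ, with the diet and no transfer, and HFD_STZ_control_FMT, with the diet and a transfer from control donors, hold 3 libraries each and are set beside these where they help. The dose of STZ, the length of the diet and how the transfer was done are not given in the sources used here. Of the 20979 genes in the deposited table, the 13874 with at least 1 RPKM (reads scaled to transcript length and sequencing depth) in at least 3 of the 18 libraries were tested.

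The testis makes sperm in tubules lined by Sertoli cells, which nurse the germ cells through meiosis and the shaping of the spermatid head and tail. Leydig cells between the tubules turn cholesterol into testosterone under pituitary control, and diabetes and obesity are known to disturb both compartments. The testis lies against the epididymis and its fat pad, and its RNA can hold traces of either.

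The libraries carried the genes that define a testis. Prm1, a protamine that packs sperm DNA, was between 11650 and 13687 RPKM in control and between 14574 and 17850 RPKM in the recipients, and Insl3, a Leydig cell hormone, was between 2929 and 4516 RPKM over both groups. RPKM summed to between 588081 and 602525 per control library and to between 607721 and 646822 per recipient library, and 13063 to 13388 genes reached 1 RPKM. The steps between low values gave estimates between 12.5 and 17.4 (unit: 1e6 reads) per library over the series. One control library and 1 recipient library, replicate 3 of each, were high in the epididymal gene Crisp1, at 159 and 165 RPKM. The labels do not say whether each library is its own animal, so the p-values reflect only how these samples vary, and that variation may be technical.

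Kap rose in the recipients of AOS microbiota, with the smallest p of all genes. Of the 13874 genes tested, limma called 2 (0.0144%) at an adjusted p under 0.05, both higher in the recipients. It called 0 lower, where 774 genes (5.58%) had an unadjusted p under 0.05. Higher genes with an unadjusted p under 0.05 numbered 1093 (7.88%), so that the total in both directions was 1867, where 693.7 would be expected by chance. Without recipient replicate 1 this total was 1116. With each library's trend on transcript length removed, 805 were higher and 961 lower, and after scaling by median ratios 929 and 957. Leaving out recipient replicate 3 gave 10 calls, all higher, with Spink4, C1qtnf4, Defb19, Rps12 and Syce3 among them, and leaving out recipient replicate 2 gave 5. For comparison, limma called 0 genes in HFD_STZ against control, where 1151 (8.3%) had an unadjusted p under 0.05, and 1 (0.00721%) in the control-microbiota recipients against control. The sign of the difference was positive in 52.4% and negative in 47.6% of all genes tested, the background for the counts of higher and lower list members that follow. These comparisons share the 3 control libraries.

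Kap encodes the kidney androgen-regulated protein, a product of proximal tubule cells of the kidney. It lies on chromosome 6 (mm10, 133849851 to 133853762). It was at 39.2, 31.2 and 31.4 RPKM in the 3 recipient libraries and listed at 0 in all 3 control libraries. In the 12 libraries of the other groups it was between 0 and 0.73 RPKM, so the recipients stood apart from every other library. Its log2 difference from control on the log2(RPKM + 1) scale was 5.12 ± 0.15 (standard error), with an adjusted p of 4.62e-12 by limma. With a pseudocount of 0.1 in place of 1 the difference was 8.4, so its size depends on that choice. Against the control-microbiota recipients, which were also listed at 0, the difference was again 5.12. Kap entered the test only because the 3 recipient libraries reached 1 RPKM.

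Other kidney genes showed the same 3 libraries apart at levels near or under 1 RPKM. A list of 40 kidney genes was written after these values had been seen, so its counts describe the libraries and test nothing. In 15 of the 40, all 3 recipient libraries lay above all 15 other libraries, which was so for 59 of all 20979 genes (0.281%). Slc34a1, a phosphate transporter of the proximal tubule, was at 0.86, 0.75 and 1.11 RPKM in the recipients and at 0.04, 0.07 and 0.04 in control. S100g, a calcium-binding protein of kidney and gut, was at 0.61, 0.43 and 0.63 RPKM against 0 in each control library. Umod, the uromodulin of the thick ascending limb, was at 0.20, 0.34 and 0.33 RPKM against 0.05, 0 and 0. The podocyte gene Nphs1 was at 0.03, 0 and 0 RPKM against 0.04, 0.01 and 0.03, and the distal tubule transporter Slc12a3 at 0.20 in each recipient library against 0.18, 0.18 and 0.16. The list summed to 65.3, 56.0 and 61.3 RPKM in the recipients and to between 10.8 and 19.4 RPKM in the other 15 libraries, and Kap was the largest single part of each recipient sum. Without the filter on low values limma called 10 genes, all higher, among them Kap, Slc34a1, S100g, Umod, Acsm2, Cltrn, Guca2b and Keg1, which are on the kidney list, and Ssbp4. The part of RNA from another organ in the change of Kap was not tested.

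Some epididymal genes were also high in the recipients, but not evenly and not throughout the list. Those with values here were picked after the values had been seen. Defb47, an epididymal beta-defensin, was at 37.3, 2.15 and 14.5 RPKM in the recipients and at 0.35, 0.09 and 0.45 in control. Defb20, another of these defensins, was at 17.4, 1.36 and 7.09 RPKM against 0, 0.12 and 0.25. Gpx5, the secreted glutathione peroxidase of the epididymal head, was at 22.2, 0.86 and 10.0 RPKM against 0.09, 0.04 and 0. The groups did not overlap for these 3 genes, yet recipient replicate 2 was far under the other recipient libraries in each. Defb47 differed from control by 3.26 ± 0.55 and Defb20 by 2.66 ± 0.45 on the log2 scale, and each had an adjusted p of 0.0584 by limma. Cst11, a cystatin of the epididymis, was at 11.2, 0.89 and 5.72 RPKM against 0.44, 0 and 0.29. Without recipient replicate 2, Defb47, Defb20 and Cst11 passed the test, with differences of 4.24, 3.45 and 2.88. That library was the lowest recipient library in each of these genes, which were picked by their values, so these passes are no separate evidence. The recipient values of Defb47 and Defb20 alone met the filter on low values, which was set with replicate 2 included.

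Crisp1 and Cd52, markers of the epididymis, were spread otherwise. Crisp1 was at 0.99, 11.5 and 165 RPKM in the recipients and at 2.71, 0.15 and 159 in control. Cd52 was at 3.60, 11.1 and 140 RPKM against 2.56, 2.19 and 133. The groups overlapped in both, and the order of the recipient libraries was not that of Defb47 or Gpx5. Of 23 epididymal genes in the table, 17 passed the filter on low values, 13 were higher and 4 lower, 0 were called and the median log2 difference was 0.28, beside 0.01 over all genes tested. Without the filter on low values, Defb30 was at -0.22, Wfdc9 at -0.19, Aqp9 at -0.13 and Rnase9 at -0.06 on the log2 scale, and none of these 4 was called. That median was 0.13 without recipient replicate 3, with 9 higher and 8 lower, and 0.47 without control replicate 3.

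Fat cell genes were higher in the recipients of either microbiota. Fabp4, the fatty acid carrier of adipocytes, was at 30.8, 46.2 and 93.9 RPKM in the recipients of AOS microbiota and at 11.3, 3.84 and 6.86 in control. It was at 10.3, 11.5 and 3.15 RPKM in HFD_STZ and at 28.7, 22.7 and 105 in the control-microbiota recipients. Control and the AOS-microbiota recipients did not overlap, with a log2 difference of 2.75 ± 0.88 and an adjusted p of 0.200. Car3, a carbonic anhydrase abundant in fat, was at 17.3, 20.6 and 49.4 RPKM against 8.90, 2.87 and 7.64. Adipoq, the hormone adiponectin, was at 13.4, 13.2 and 16.2 RPKM against 11.5, 9.43 and 11.4. Of 15 tested fat genes 13 were higher and 2 lower than control, 0 were called, and the median log2 difference was 0.37. With an unadjusted p under 0.05, 5 were higher, beside 7.88% of all genes. Without recipient replicate 3, 1 had an unadjusted p under 0.05, and without control replicate 2, 2 had one. Over all 13874 genes, 1202 and 815 were higher at that level in these fits, respectively. The same 15 had medians of -0.02 in HFD_STZ and 0.42 in the control-microbiota recipients, against the same control libraries. The list summed to between 543 and 565 RPKM in control and between 584 and 727 RPKM in the AOS-microbiota recipients. In HFD_STZ_AOS, given AOS without transfer, it summed to 535, 543 and 664 RPKM, so 1 of those libraries lay within the recipient range. The amount of attached fat was not tested as a part of these values.

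**Figure D1:**
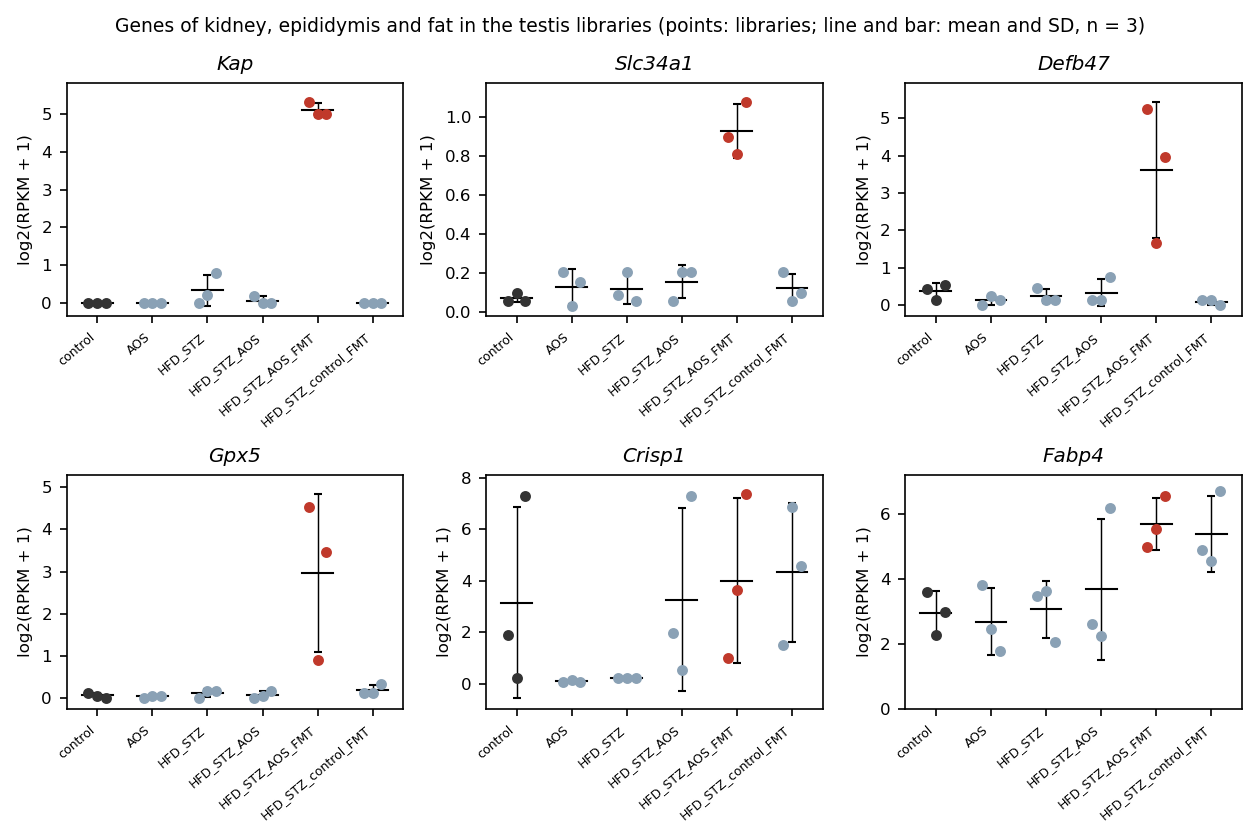
Levels of 6 genes of kidney (Kap, Slc34a1), epididymis (Defb47, Gpx5, Crisp1) and fat (Fabp4) in the 18 libraries, on the log2(RPKM + 1) scale, with the mean and SD of the 3 libraries of each group. Kap and Slc34a1 stand apart in the 3 HFD_STZ_AOS_FMT libraries, Defb47 and Gpx5 are uneven among them, and Crisp1 is high in single libraries of several groups.

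The genes nearest to the threshold after these were mostly small in change. Spink4, a protease inhibitor of the Kazal type, was at 11.1, 16.9 and 10.8 RPKM in the recipients and at 4.19, 3.37 and 4.43 in control. The groups did not overlap, which the rule that chose the genes of this paragraph required. The log2 difference was 1.46 ± 0.24 with an adjusted p of 0.0584 by limma. HFD_STZ was at 7.18, 7.11 and 13.2 RPKM, between the groups and overlapping the recipients. Spink4 passed with a pseudocount of 0.1 and in a fit on the 6 libraries alone. Ssbp4, a single-stranded DNA binding protein, was at 11.7, 12.5 and 12 RPKM against 10.2, 9.05 and 8.85, a difference of 0.34 ± 0.06 with an adjusted p of 0.0584. Mgmt, the repair enzyme that removes alkyl groups from guanine, was at 1.90, 2.24 and 2.29 RPKM against 0.98, 1.23 and 0.98, with an adjusted p of 0.121. C1qtnf4, a secreted relative of adiponectin, was at 131, 119 and 106 RPKM against 91.0, 76.1 and 87.2, with an adjusted p of 0.0739.

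Glandular kallikreins were among the lower genes with the largest differences. These are serine proteases encoded by a tight cluster of similar genes on chromosome 7, known from salivary gland and kidney and expressed in Leydig cells. The windows below run up to a TTTAAA stretch before the start site, with that stretch in capitals. They are shown to set the upstream letters of genes that were lower beside those of genes that were not. The first 3 belong to genes that were lower in the recipients and the last 2 to genes that were not (RefSeq, GRCm38.p6, 126 bases each, plus strand).
Klk1b24, chr7:44188085-44188210: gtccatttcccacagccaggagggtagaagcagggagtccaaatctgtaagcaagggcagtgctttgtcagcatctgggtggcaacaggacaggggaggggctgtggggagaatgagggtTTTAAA
Klk1b27, chr7:44052153-44052278: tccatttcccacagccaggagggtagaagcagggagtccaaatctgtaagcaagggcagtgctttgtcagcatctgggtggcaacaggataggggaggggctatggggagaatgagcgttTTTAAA
Klk1b22, chr7:44112513-44112638: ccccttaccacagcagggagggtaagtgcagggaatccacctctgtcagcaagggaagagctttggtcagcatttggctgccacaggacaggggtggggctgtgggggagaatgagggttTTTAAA
Klk1b9, chr7:43975908-43976033: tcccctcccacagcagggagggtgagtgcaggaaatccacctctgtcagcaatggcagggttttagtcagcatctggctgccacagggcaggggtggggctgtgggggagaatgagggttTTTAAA
Klk1b8, chr7:43950502-43950627: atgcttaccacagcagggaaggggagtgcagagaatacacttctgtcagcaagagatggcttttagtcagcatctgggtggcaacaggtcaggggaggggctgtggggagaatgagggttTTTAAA
The stretch TTTAAA reads the same on both strands, and 12.1% of 32851 RefSeq promoters hold it within 250 bases before the start. Over those 250 bases Klk1b24 and Klk1b27 were identical at 91.9% of aligned positions and Klk1b24 and Klk1b21 at 97.7%, while Klk1b24 and Klk1b22 shared 80.0% and Klk1b24 and Klk1b9 83.4%. The match is a description of the letters only.

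Klk1b21 was at 6.49, 3.88 and 2.91 RPKM in the recipients and at 26.5, 21.6 and 15.95 in control. Klk1b24 was at 7.94, 5.24 and 4.38 RPKM against 29.6, 23.4 and 13.7, and Klk1b27 at 4.32, 2.57 and 2.37 against 22.4, 16.8 and 10.7. In these 3 genes every one of the 15 libraries outside control lay under the lowest control library, including the AOS group, which had neither diet nor transfer. The log2 differences were -2.07 ± 0.52 for Klk1b21, -1.73 ± 0.47 for Klk1b24 and -2.08 ± 0.45 for Klk1b27, with adjusted p of 0.155, 0.163 and 0.144 by limma. Klk1b22 was at 0, 0.09 and 0.18 RPKM in the recipients against 4.26, 3.43 and 0.92, a difference of -1.71 ± 0.35 with an adjusted p of 0.144. Without control replicate 3 Klk1b22 passed, at -2.15.

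Other kallikreins of the cluster did not share this. Klk1b8 was at 116, 93.9 and 94.8 RPKM in the recipients and at 85.8, 81.7 and 75.1 in control, without overlap and in the opposite direction (adjusted p 0.179). Klk1b9 was at 21.8, 14.2 and 14.9 RPKM against 17.6, 12.96 and 10.9, with overlap. Of the 12 tested genes of the cluster, listed after the values had been seen, 6 were higher and 6 lower. Transcripts of Klk1b21, Klk1b24 and Klk1b27 are identical at 93.3% to 94.1% of aligned bases, so reads could be split between them and their separate levels are uncertain.

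**Figure D2:**
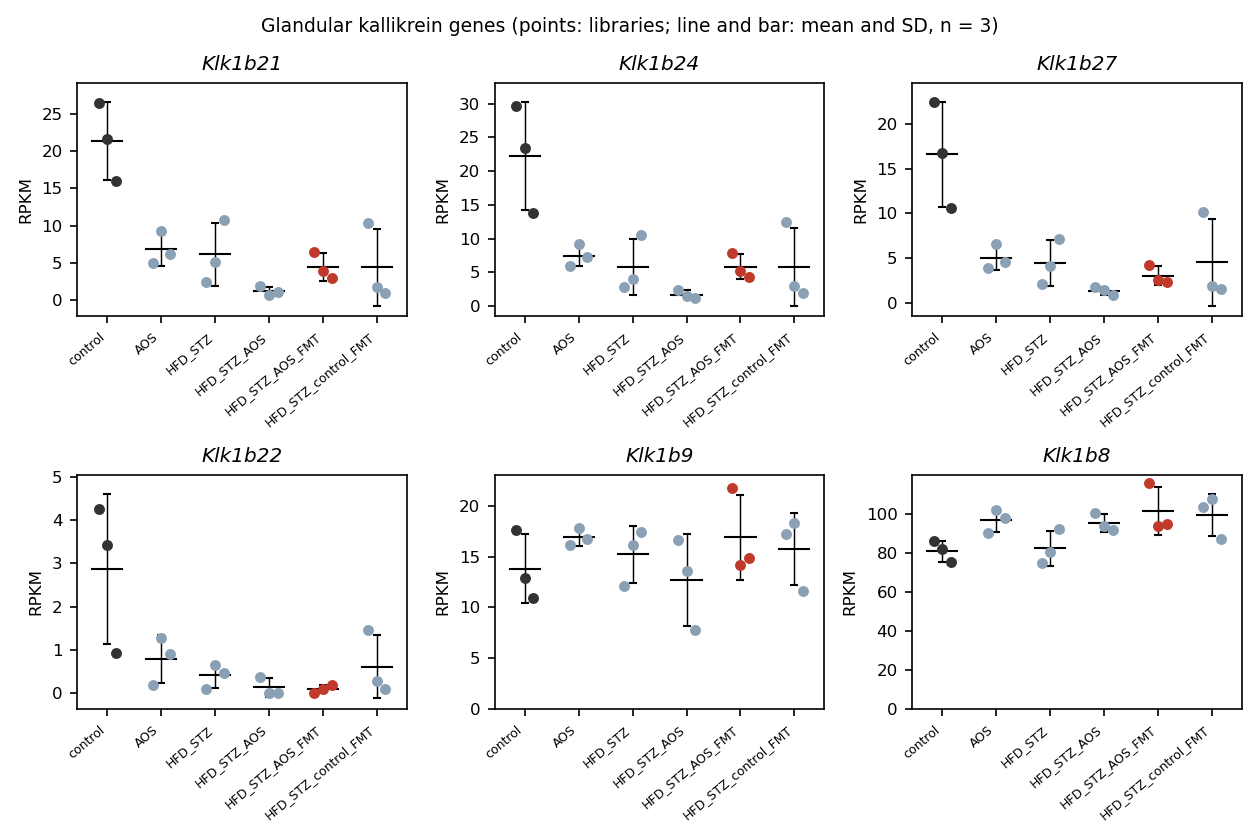
RPKM of 6 glandular kallikrein genes in the 18 libraries, with the mean and SD of the 3 libraries of each group. Klk1b21, Klk1b24 and Klk1b27 are highest in the 3 control libraries and lower in all 5 other groups, while Klk1b9 and Klk1b8 are not.

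Leydig cell genes moved in both directions in the recipients, and 0 of 24 tested were called. In bulk testis, fewer cells of a type and less RNA per cell cannot be told apart. Hsd3b6, an isoform of 3-beta-hydroxysteroid dehydrogenase that is known as the adult Leydig cell form, was at 17.9, 20.3 and 19.9 RPKM in the recipients and at 25.1, 32.2 and 40.1 in control. The groups did not overlap, with a log2 difference of -0.69 ± 0.16 and an adjusted p of 0.144. In the control-microbiota recipients Hsd3b6 was lower still, at 9.51, 8.59 and 10.98 RPKM, and it was the 1 gene called in that group against control (adjusted p 0.00037). The difference between the recipients of the 2 microbiotas was 0.93 ± 0.16 for Hsd3b6, with an adjusted p of 0.0973. Between those groups limma called 3 genes (0.0216%), Kap and Defb47 among them, but Defb47 was called in only 4 of 14 alternatives, and leaving out any 1 of the 6 libraries of these groups, other than replicate 2 of the AOS-microbiota recipients, ended its call.

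Hsd3b1, the isoform that shares this role in Leydig cells, went the other way. It was at 118, 181 and 110 RPKM in the recipients and at 81.6, 64.5 and 67.5 in control, a log2 difference of 0.90 ± 0.21 with an adjusted p of 0.144. The 2 transcripts are identical at 82.2% of aligned bases, so some reads may be shared. Cyp21a1, the steroid 21-hydroxylase that is better known from the adrenal gland, was at 9.71, 11.3 and 6.78 RPKM against 2.48, 4.10 and 4.45, a difference of 1.14 ± 0.24 with an adjusted p of 0.144. It was also at 9.48, 6.97 and 8.67 RPKM in HFD_STZ, and a pseudogene copy makes its reads uncertain. Ptgds, a prostaglandin D synthase secreted in the testis, was at 371, 436 and 305 RPKM against 236, 201 and 193, a difference of 0.81 ± 0.18 with an adjusted p of 0.144.

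The classical steroidogenic genes lay closer to control. Star, which carries cholesterol into mitochondria, was at 41.3 ± 1.5 RPKM in the recipients and 44.5 ± 7.7 in control (SD, n = 3 each). Cyp17a1, the 17-alpha-hydroxylase, was at 303 ± 62 against 348 ± 36 RPKM. Insl3 was at 3847 ± 723 against 3144 ± 208 RPKM. The groups overlapped in all 3, with adjusted p of 0.902, 0.498 and 0.497 by limma. The 24 Leydig cell genes had a median log2 difference of 0.05, with 14 higher and 10 lower, and this median was -0.03 without recipient replicate 2.

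Cholesterol synthesis genes were mostly lower than control. Of 25 tested, 20 were lower and 5 higher, 0 were called, and the median log2 difference was -0.11. With an unadjusted p under 0.05, 7 were lower and 1 higher, beside 5.58% and 7.88% of all genes. Sc5d, the lathosterol oxidase, was at 6.22, 7.05 and 5.66 RPKM in the recipients and at 8.64, 8.32 and 10.3 in control, a difference of -0.46 ± 0.12 with an adjusted p of 0.161. Lss, the lanosterol synthase, was at 2.57, 3.43 and 2.77 RPKM against 3.91, 3.71 and 4.56. Neither gene overlapped between the groups, and they were the only 2 of the 25 lower without overlap, beside 7.8% of all genes. In the control-microbiota recipients against control, 10 were lower without overlap and 9 were lower with an unadjusted p under 0.05. Medians of the 25 genes were -0.07 in HFD_STZ and -0.12 in the control-microbiota recipients, against the same control. In the AOS-microbiota recipients the median was -0.205 without recipient replicate 2 and -0.0591 without replicate 1, where 3 were lower with an unadjusted p under 0.05. Without control replicate 3, 4 were, and without the 4 libraries high in Crisp1, 1 was. Over all 13874 genes, 325, 583 and 767 were lower at that level in these fits, respectively.

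**Figure D3:**
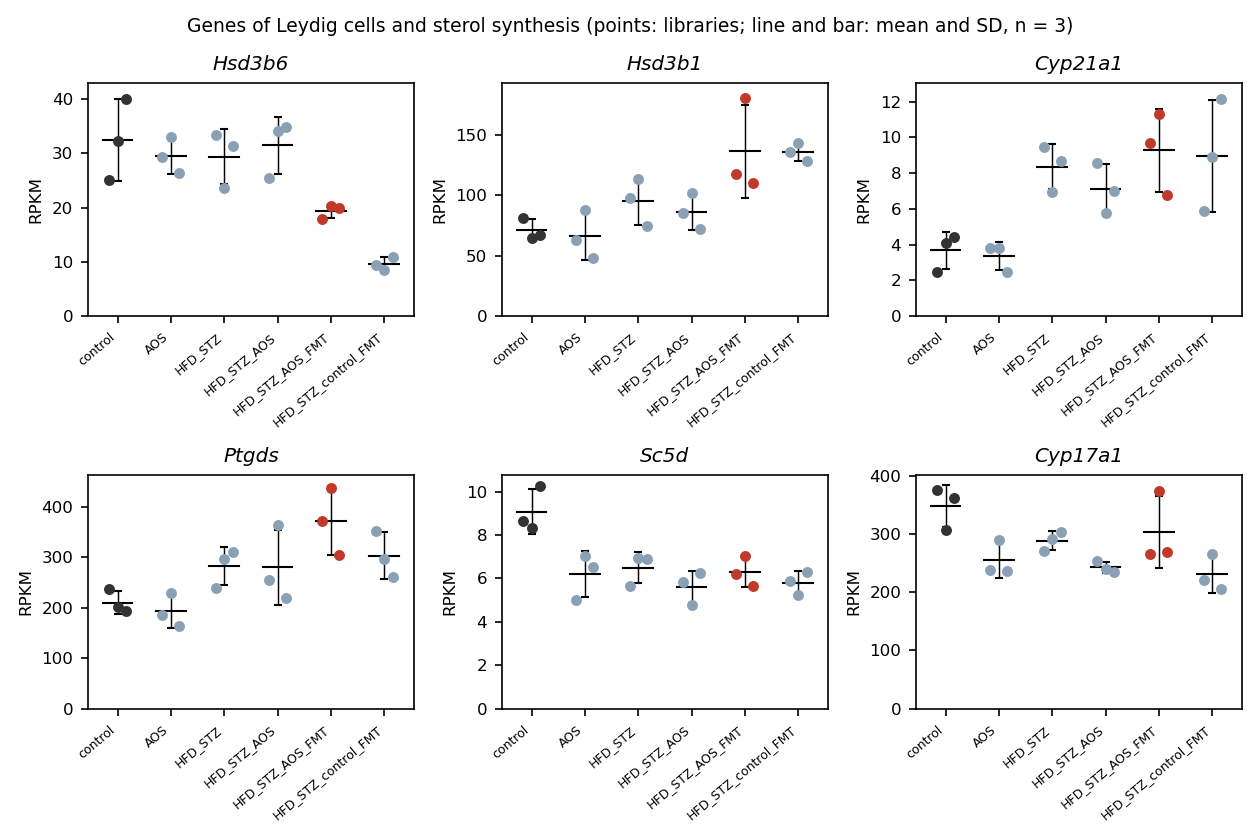
RPKM of 5 genes of steroid, prostaglandin or sterol metabolism (Hsd3b6, Hsd3b1, Cyp21a1, Ptgds, Sc5d) and of Cyp17a1 in the 18 libraries, with the mean and SD of the 3 libraries of each group. Hsd3b6 and Sc5d are lower and Hsd3b1, Cyp21a1 and Ptgds higher in HFD_STZ_AOS_FMT than in control without overlap, and Cyp17a1 overlaps.

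Sertoli cell genes were mostly higher in the recipients. Of 34 tested, 27 were higher and 7 lower, and 0 were called. With an unadjusted p under 0.05, 11 were higher and 2 lower, beside 7.88% and 5.58% of all genes. The median log2 difference was 0.12, the same as in HFD_STZ at 0.12, and 0.05 in the control-microbiota recipients. Without recipient replicate 2, 21 were higher and 13 lower, 6 and 4 of them with an unadjusted p under 0.05, and the median was 0.0704. Over all 13874 genes, 941 were higher and 1010 lower at that level in this fit. Without control replicate 2 the median was 0.0755 and 7 were higher with an unadjusted p under 0.05, beside 815 of all 13874 genes. Defb19, a beta-defensin made by Sertoli cells, was at 335, 322 and 276 RPKM against 258, 244 and 223, a difference of 0.36 ± 0.07 with an adjusted p of 0.144. Rhox8, a homeobox gene of Sertoli cells, was at 14.6, 16.3 and 14.1 RPKM against 12.4, 11.4 and 11.9, and Aqp8, a water channel, at 13.6, 13.5 and 11.9 against 10.0, 10.1 and 10.2. None of these 3 overlapped between groups. Amh, the hormone of immature Sertoli cells, was at 0.95, 1.33 and 0.99 RPKM against 0.97, 0.53 and 0.87, with overlap. Cldn11, a tight junction protein, was at 33.7, 39.99 and 33.2 RPKM against 34.0, 32.1 and 33.3, also with overlap, and 0 of 21 tested blood-testis barrier genes were called.

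Germ cell genes showed small differences, and no difference between stages was tested. Spermatogonial genes were higher in 11 of 16, with a median log2 difference of 0.02, and in 7 of 16 without recipient replicate 2. Round spermatid genes were higher in 24 of 38, with a median of 0.03, and in 16 of 38 without recipient replicate 1. Elongating spermatid genes were higher in 24 of 33, 7 of them with an unadjusted p under 0.05, beside 7.88% of all genes. Of these 33, 0 were called, and the median log2 difference was 0.07. Without recipient replicate 1, 19 were higher, 2 of them with an unadjusted p under 0.05, and the median was 0.02. With the length trend removed, 2 had an unadjusted p under 0.05. Over all 13874 genes, 791 and 805 were higher at that level in these fits, respectively. Prm1 was at 17850, 14806 and 14574 RPKM in the recipients and at 13687, 13051 and 11650 in control, without overlap (0.30 ± 0.09, adjusted p 0.180). Meig1, needed to build the sperm tail, was at 2869, 2331 and 2375 RPKM against 2288, 2124 and 2088, also without overlap. Meiosis genes were lower in 27 of 36, with 0 called and a median of -0.06. At an unadjusted p under 0.05, 6 were lower and 1 higher, beside 5.58% and 7.88% of all genes. Stag3, a cohesin of meiotic chromosomes, was at 111, 121 and 121 RPKM against 130, 135 and 127, and the groups did not overlap. Syce3, a short protein of the synaptonemal complex, was among the 9 higher genes, at 188, 172 and 124 RPKM against 122, 116 and 126, with overlap. Tdrd6, of the piRNA granules of spermatocytes and spermatids, was at 88.6, 97.6 and 103 RPKM against 109, 118 and 110. Sycp3 and Stra8, the markers of meiosis in the panel, were at 187 ± 5.94 and 7.89 ± 1.4 RPKM against 190 ± 5.5 and 7.76 ± 1.8 (SD, n = 3 each).

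Genes of the sperm tail and of ciliary transport were mostly lower. Of 30 tested, 25 were lower and 5 higher, and 18 were lower with an unadjusted p under 0.05 beside 5.58% of all genes. None was called, and the median log2 difference was -0.14. Without recipient replicate 1, 10 were lower with an unadjusted p under 0.05. In that fit 325 of all 13874 genes were, against 774 in the reported test. Dync2h1, the motor heavy chain of return transport in cilia, was at 9.84, 11.2 and 11.2 RPKM in the recipients and at 12.8, 12.95 and 12.4 in control, a difference of -0.23 ± 0.05 with an adjusted p of 0.144. Cfap65, a protein of the sperm tail, was at 75.3, 82.8 and 79.5 RPKM against 89.8, 90.6 and 87.5. Qrich2, also of the sperm tail, was at 145, 159 and 159 RPKM against 173, 181 and 175. No overlap was seen in any of the 3. The list's median was -0.02 in HFD_STZ and -0.08 in the control-microbiota recipients.

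Ribosomal protein genes were higher in all 38 tested. Of these, 17 had an unadjusted p under 0.05 beside 7.88% of all genes, 0 were called, and the median log2 difference was 0.17. Rpl38 was at 880, 648 and 650 RPKM in the recipients and at 542, 516 and 585 in control. Rps12 was at 457, 414 and 391 RPKM against 348, 345 and 348, a difference of 0.27 ± 0.05 with an adjusted p of 0.144. Both genes were without overlap, and recipient replicate 1 was the highest in each. Nuclear genes of oxidative phosphorylation were higher in 35 of 39, with 21 at an unadjusted p under 0.05, 0 called and a median of 0.14. Cox4i1, a subunit of cytochrome oxidase, was at 306, 275 and 283 RPKM against 253, 248 and 240. The medians of both lists were close to these in the control-microbiota recipients, at 0.17 and 0.13, and near 0 in HFD_STZ, at 0.03 and 0.01. Groups given AOS without transfer were also above control. Ribosomal protein genes summed to 10580 to 10730 RPKM in AOS and 11630 to 11860 in HFD_STZ_AOS, against 9689 to 10250 in control. Oxidative phosphorylation genes summed to 5375 to 5562 and 5295 to 5721 RPKM, against 5007 to 5120.

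Transcript length moved with these groups. Ribosomal protein and oxidative phosphorylation genes have median annotated transcript lengths of 630 and 645 bases, against 1922 bases for the tail and cilium genes. The tested genes were divided by length into 5 sets of equal size. The set of shortest transcripts had a median log2 difference from control of 0.045, and the set of longest transcripts -0.035. Within single libraries, the median of the shortest set minus that of the longest, on the log2 scale, was between -0.07 and -0.03 in control and HFD_STZ. It was 0.10, 0.01 and -0.01 in the 3 AOS-microbiota recipients, which did not overlap control, and 0.06, 0.04 and -0.01 in the control-microbiota recipients. Without transfer it was 0.008, 0.022 and -0.001 in AOS, and 0.047, 0.028 and 0.009 in HFD_STZ_AOS. With each library's trend on length removed, the medians were 0.11 for ribosomal proteins, 0.09 for oxidative phosphorylation and -0.13 for tail and cilium genes. Without recipient replicate 1 they were 0.11, 0.09 and -0.11, and the genes with an unadjusted p under 0.05 numbered 10 of 38 ribosomal protein, 12 of 39 oxidative phosphorylation and 10 of 30 tail and cilium genes. Removing the length trend left 12, 12 and 16. Over all 13874 genes, 791 were higher and 325 lower at that level without recipient replicate 1. With the length trend removed these were 805 and 961, against 1093 and 774 in the reported test. The part of transcript length in the rest of these differences was not tested.

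**Figure D4:**
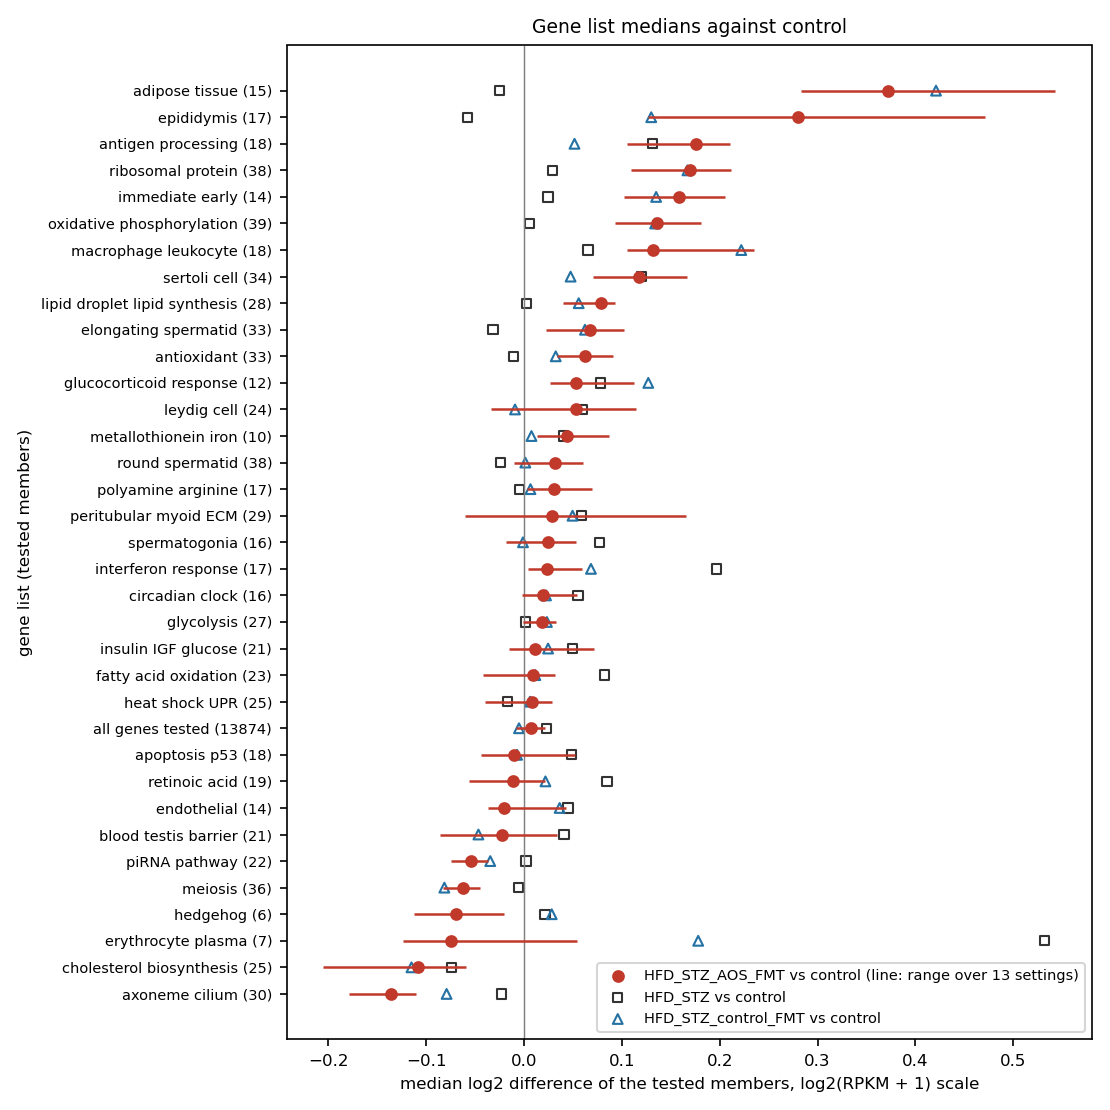
Median log2 difference from control on the log2(RPKM + 1) scale of the tested members of each gene list in HFD_STZ_AOS_FMT (filled circles, with the range over 13 settings as a line), HFD_STZ (squares) and HFD_STZ_control_FMT (triangles); the 3 comparisons share the control libraries. The kidney and kallikrein lists, the lists chosen on earlier results of these data and lists with under 5 tested members are not plotted. Among the lists plotted, fat and epididymal genes lie highest and tail and cilium genes lowest in HFD_STZ_AOS_FMT, and ribosomal protein and oxidative phosphorylation genes lie near 0 in HFD_STZ.

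Genes of immune cells were a little higher, and none of these was called. Of 18 tested macrophage and leukocyte genes 14 were higher and 4 lower, with a median log2 difference of 0.13. Without recipient replicate 2, 10 were higher and 8 lower. In that fit 0 were higher with an unadjusted p under 0.05, beside 941 of all 13874 genes. Without recipient replicate 1 the median was 0.235. C1qb, a complement subunit made by macrophages, was at 18.1, 17.5 and 16.1 RPKM in the recipients and at 16.1, 12.6 and 14.4 in control. H2-Ab1, a class II antigen-presenting chain, was at 13.5, 19.9 and 10.3 RPKM against 8.09, 9.12 and 7.86. Cd68, the macrophage marker of the panel, was at 2.36, 4.80 and 4.07 RPKM against 3.49, 3.25 and 3.20, with overlap. Interferon response genes had a median of 0.02 in the recipients and 0.20 in HFD_STZ, with 0 of 17 called in either. Psmb8, an interferon-induced proteasome subunit, was at 1.29, 2.03 and 1.55 RPKM in the recipients, 2.14, 2.80 and 3.60 in HFD_STZ and 1.49, 0.59 and 1.19 in control.

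Genes that had been named earlier for the diet with STZ lay in several places. The list of 21 was chosen from these same libraries. It is no independent evidence of a direction, of a place between groups or of a return to control. Fitm1, which helps to form lipid droplets, was at 9.63, 7.97 and 8.66 RPKM in the recipients, at 20.1, 13.6 and 17.2 in HFD_STZ and at 4.86, 5.54 and 6.99 in control. The recipients lay between the other groups without overlap, at a difference of 0.53 ± 0.23 from control (adjusted p 0.340) and -0.87 ± 0.23 from HFD_STZ (adjusted p 0.216). Sec23a, part of the vesicle coat that buds from the endoplasmic reticulum, was at 41.3, 41.3 and 41.1 RPKM in the recipients, at 35.4, 34.5 and 34.5 in HFD_STZ and at 46.7, 45.1 and 45.0 in control. It too lay between them, with differences of -0.14 ± 0.06 from control and 0.24 ± 0.06 from HFD_STZ, and adjusted p of 0.288 and 0.189.

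Other genes of that list overlapped control. Arg2, the mitochondrial arginase, was at 3.07, 4.23 and 4.87 RPKM in the recipients, 10.8, 6.63 and 9.94 in HFD_STZ and 4.93, 2.80 and 2.46 in control. Arl9, an ARF-like GTPase, was at 94.2, 92.2 and 97.3 RPKM, against 75.4, 83.4 and 80.4 in HFD_STZ and 100.2, 89.1 and 97.8 in control. Pcdha12, a clustered protocadherin, was at 2.02, 1.88 and 1.89 RPKM, against 1.07, 1.04 and 1.02 in HFD_STZ and 1.85, 1.87 and 2.14 in control. In these 3 genes the recipients overlapped control and not HFD_STZ, and adjusted p for recipients against HFD_STZ was 0.189, 0.189 and 0.193 by limma. These tests use the HFD_STZ libraries that served to choose the genes, so they cannot show a return to control. Brsk1, a kinase best known from neurons, comes from another list of 3 genes, chosen as returned after transfer in these same libraries. It was at 23.1, 25.1 and 25.5 RPKM, between control at 22.1, 20.6 and 22 and HFD_STZ at 31.1, 30.6 and 33.1 without overlap. The place of Brsk1 was part of that choice and is no independent evidence. Cyp21a1, Sc5d and Defb19, which are on the list of 21, did not overlap control, and neither did Muc15, a membrane mucin, at 1.98, 2.66 and 1.52 RPKM against 1.04, 0.85 and 1.00. Of the 21 genes, 9 did not overlap control, 6 of them higher and 3 lower, beside 10.2% and 7.8% of all genes. Between the AOS-microbiota recipients and HFD_STZ limma called 2 genes (0.0144%), and none was on these lists.

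**Figure D5:**
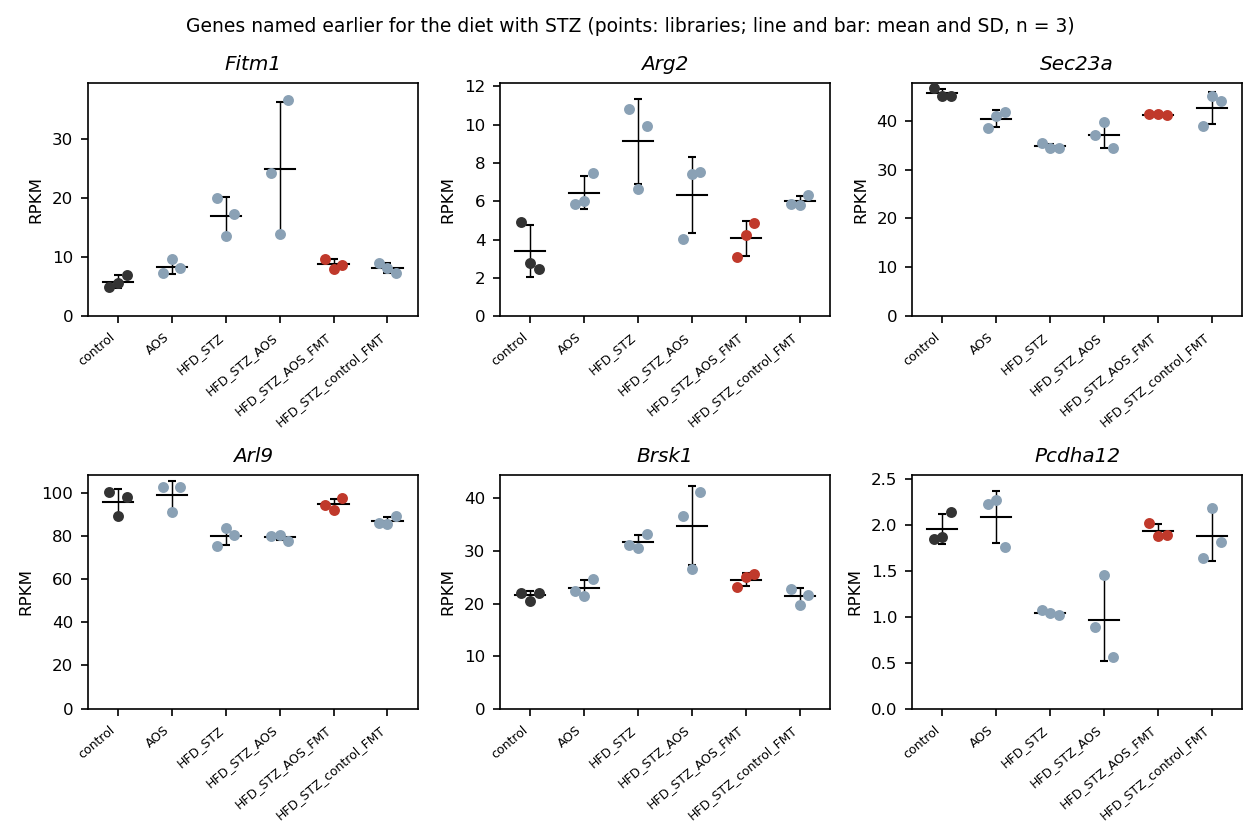
RPKM of 6 genes taken from earlier results on these libraries in the 18 libraries, with the mean and SD of the 3 libraries of each group. Fitm1, Sec23a and Brsk1 in HFD_STZ_AOS_FMT lie between control and HFD_STZ, and Arg2, Arl9 and Pcdha12 overlap control. All 6 were chosen from these same libraries, so their places are no independent evidence.

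Further pathways held single genes apart from control, and 0 of their members were called. Of 14 tested immediate early genes 11 were higher and 3 lower, with a median log2 difference of 0.16. Junb, a transcription factor of early responses, was at 3.40, 3.56 and 3.65 RPKM in the recipients and at 2.72, 2.37 and 2.43 in control. Egr1, another of these, was at 3.41, 2.21 and 2.86 RPKM against 1.83, 1.82 and 1.48. Mt2, a metal-binding metallothionein, was at 573, 460 and 452 RPKM against 435, 363 and 376, and Hspe1, a mitochondrial co-chaperone, at 34.4, 30.9 and 25.7 against 21.9, 21.7 and 22.2. Cyp26b1, which breaks down retinoic acid, was at 3.07, 4.35 and 4.88 RPKM against 5.36, 5.43 and 6.05. None of these 5 genes overlapped between the groups, and their adjusted p lay between 0.155 and 0.280. Of 23 fatty acid oxidation genes 13 were higher and 10 lower, with a median of 0.01 and 0 with an unadjusted p under 0.05. Without recipient replicate 2, 6 were higher and 17 lower, with a median of -0.04. Glycolysis genes had a median of 0.02 over 27, and antioxidant genes 0.06 over 33.

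Among the lower genes outside these lists, the differences were small. Ttll4, a tubulin glutamylase, was at 27.8, 30.5 and 30.9 RPKM in the recipients and at 33.7, 34.7 and 35.3 in control, a log2 difference of -0.21 ± 0.04 with an adjusted p of 0.121. Akap12, an anchor protein of protein kinase A, was at 428, 434 and 454 RPKM against 491, 525 and 507. Stt3b, a subunit of the oligosaccharyltransferase, was at 153, 155 and 169 RPKM against 185, 181 and 182, while HFD_STZ was at 185, 187 and 178. For each of these 3 genes, all 3 recipient libraries lay below every control library, which the rule that chose them required. Over all genes tested, 7.8% were lower without overlap. The 12 other lower genes taken by the same rule, Hsd3b6, Klk1b22 and Klk1b27 among them, had adjusted p of 0.140 to 0.149.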

How the data were processed

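Testis RNA of ICR mice was extracted with Trizol and a PureLink kit and sequenced on Illumina instruments, per the labels' protocols. Expression was deposited by the authors as RPKM in a single table for all 18 libraries, made with Bowtie 0.12.2 on mm10, per the submitters' processing notes; how reads shared by similar genes were counted is not given in the sources used here. Of 20985 rows, 6 with 3 repeated symbols were left out, and 26 carried symbols damaged into dates. The table holds no counts, so sequencing depth was inferred from how far apart the lowest values lie, and no interval for counting error is given.

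The 13874 of 20979 genes that reached 1 RPKM in 3 or more of the 18 libraries were tested on log2(RPKM + 1) with limma 3.58.1 (R 4.3.3), with trend, 1 coefficient for each of 6 groups, two-sided tests and Benjamini-Hochberg adjustment at 0.05. The log2 scale with a pseudocount of 1 understates changes of low genes. In simulated data for this comparison, with 200 of 13874 genes changed, 85.1%, 95.5% and 100% of changes of 0.5, 1 and 2 on the log2 scale were recovered. There, 10 unchanged genes were called. Changed genes were drawn only from those with a mean above 2 on that scale, with independent noise and no shift shared within a library. These shares may therefore not hold for the real data.

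The genes and lists were chosen with earlier results of these data known, and the kidney and kallikrein lists after their values had been seen. The genes described were up to 15 in each direction by adjusted p, change and separation of the groups, the 3 of smallest p in each list, a marker panel, genes of the earlier lists and markers of neighbouring tissues. Of these, 1 gene is not reported here. Others in the text, such as Gpx5, Klk1b8 and the kidney genes below the filter, were picked after their values were seen. Alternatives were another scaling, no filter, a pseudocount of 0.1, the compared groups alone, a replicate block, robust moderation and leaving out each library; removal of the transcript length trend and leaving out the 4 libraries with high Crisp1 were chosen after seeing the data. Deviations of same-numbered libraries of the 2 groups correlated at 0.198, 0.105 and 0.411, and those of other pairs between -0.298 and 0.167. The 0.411 joins the 2 replicate 3 libraries, both high in Crisp1. No pairing is given in the labels, the reported test was unpaired, and the replicate block was only an alternative. Transcript lengths came from GENCODE vM21 and promoters from RefSeq.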

Additional observations from a re-analysis of the deposited data

Results flagged for a closer look

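Between the recipients of AOS microbiota and the recipients of control microbiota, both on the diet with STZ, limma called 3 of 13874 genes, and Kap and Defb47 are given here because the groups differed by a direct test. Kap was higher in the recipients of AOS microbiota by 5.12 and Defb47 by 3.54 (adjusted p 0.0447) on the log2 scale, each in 3 of 3 libraries. Defb47 was uneven among the recipients of AOS microbiota, at 37.3, 2.15 and 14.5 RPKM, and was called in only 4 of 14 alternatives: without a filter on low values, with a pseudocount of 0.1, with the length trend removed and without recipient replicate 2. Kap was called in all 14. The cause of these differences was not tested.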

How the results depend on the processing

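Kap was called against control under all 14 alternatives run. The number of genes called against control, 2 in the reported test, was 10 without a filter on low values, 4 with a pseudocount of 0.1 and 7 in the compared groups alone, and between 2 and 10 when 1 library was left out. With the replicate block it was 2, and the block changed no call of this comparison. For the control-microbiota recipients against control (1 gene), the number was 2 after scaling by median ratios, 13 in the groups alone, 2 with robust moderation, 0 without the 4 libraries high in Crisp1 and 1 to 4 when 1 library was left out. For the AOS-microbiota recipients against HFD_STZ (2 genes) it was 16 without a filter, 4 with a pseudocount of 0.1, 1 in the groups alone and 2 to 5 when 1 library was left out. Against the control-microbiota recipients (3 genes) it was 11 without a filter, 6 in the groups alone and 2 to 5 when 1 library was left out. It was 2 after scaling by median ratios, with the replicate block, with robust moderation and without the 4 libraries high in Crisp1, each of which ended the call of Defb47, as did the groups alone. The cause of these shifts was not tested. HFD_STZ against control gave 0 throughout. Over 112 genes and their settings, 1528 of 1568 values kept direction and side of the threshold, 15 passed it newly and 25 changed sign. Without the 4 libraries high in Crisp1, Arg2 was at -0.0411, Hbb-bs at -0.0898, Pcdha12 at 0.0443 and Star at 0.02 on the log2 scale, and without the length trend Pcdha12 was at 0.0431. When 1 library was left out, sign changes lay within -0.0651 to 0.0188 for Arl9, -0.625 to 2.56 for Cd52, -0.063 to 0.331 for Cd68, -0.82 to 2.96 for Crisp1, -0.0834 to 0.0209 for Fbxl19, -0.767 to 1.21 for Hbb-bs, -0.0353 to 0.0346 for Pcdha12, -0.204 to 0.035 for Star, -0.147 to 0.171 for Stra8 and -0.0441 to 0.00152 for Sycp3. With 3 libraries a group and RPKM alone, counting error of genes under 1 RPKM could not be given.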
